A study of Mus musculus with 10 samples.

Results

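The genes described here are 10 targets of neuronal activity in the mouse brain: Arc, Homer1, Nptx2, Npas4, Gadd45b, Btg2, Ier2, Gem, Rgs2 and Ptgs2. They were chosen with earlier results of these data known. They were taken by name, matched to Ensembl gene IDs through GENCODE M21, and make up 10 of the 47729 genes of the count table. Each symbol matched 1 protein-coding gene, and none overlaps another gene of the count table that matched this annotation. RNA was sequenced from 10 brain samples of outbred CF1 mice at postnatal day 56. In the low-protein (LP) groups both parents received the LP diet from mating on and the dam stayed on it until weaning, and the normal-protein (NP) groups received the NP diet over the same period. All parents had been given NP food before mating, and all pups were weaned at postnatal day 21 and then ate the NP diet for 5 weeks. The groups are male hypothalamus, female hippocampus, male hippocampus, female prefrontal cortex and male prefrontal cortex, each with 1 LP and 1 NP library. The labels name no genetic change and no acute stimulus.

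When synaptic input depolarizes a neuron, calcium entry activates kinases that phosphorylate CREB and SRF already bound to DNA, and a set of genes is transcribed within minutes without new protein synthesis. Some of these immediate early genes encode transcription factors. Others encode proteins that act directly at the synapse or on signalling, and the members belong mainly to this second kind. Such transcripts are mostly short-lived, so that a level largely reflects the recent past of the tissue. In cortex and hippocampus several of them are widely used as a mark of recently active neurons.

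Library totals ranged from 7871010 to 16265481 counts, and from 10256882 upward in the 9 complete libraries. A count of 0 allows up to 0.184 to 0.292 CPM (counts scaled to a common library total) in those, counting error only. The female NP hippocampus library holds no counts past Park7 on chromosome 4 or on chromosomes 5 to 9, X, Y and M, where 33.8% of the counts of the other libraries lie, so Nptx2 (chromosome 5) and Ier2 (chromosome 8) were not measured in it. Markers followed the labelled regions. Marker sums here and below cover the markers of each list that were measured in every library. Summed hypothalamic markers reached 515 and 855 CPM in hypothalamus and at most 3.94 CPM elsewhere. Hippocampal markers (4 of 7) reached 452 to 497 CPM in hippocampus and at most 135 CPM elsewhere. With all 7, the complete hippocampal libraries held 967 to 1083 CPM and the other regions 257 to 401 CPM. Cortical markers reached 928 to 1122 CPM in prefrontal cortex and at most 279 CPM elsewhere. Nothing in the labels says whether a library is 1 animal or a pool, or whether regions share animals, so a p-value here measures how far these libraries scatter, and over regions it is too small if animals are shared. In tissue samples fewer cells of a type and less RNA per cell cannot be told apart.

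CREB acts at the cAMP response element TGACGTCA or its core TGACG, and the promoters are shown because the members were chosen as genes switched on together by this signal. The RefSeq table (GRCm38.p6) held windows from 250 bases before to 50 bases after the start for 6 members, 7 windows in all, with 2 for Homer1. It held none for Arc, Nptx2, Ier2 and Gem. On either strand, TGACGTCA was in 1 of the 7 windows (Btg2) and in 1.79% of all 32851 windows of the table. The core was in 5 of the 7, against 20.8% of all windows, and every full element contains it. Capitals mark the full element in Btg2 and the core in the others, written CGTCA where it lies on the opposite strand. The 2 windows besides Btg2 were picked after the matches were seen.

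Btg2, chr1:134079106-134079405, minus strand: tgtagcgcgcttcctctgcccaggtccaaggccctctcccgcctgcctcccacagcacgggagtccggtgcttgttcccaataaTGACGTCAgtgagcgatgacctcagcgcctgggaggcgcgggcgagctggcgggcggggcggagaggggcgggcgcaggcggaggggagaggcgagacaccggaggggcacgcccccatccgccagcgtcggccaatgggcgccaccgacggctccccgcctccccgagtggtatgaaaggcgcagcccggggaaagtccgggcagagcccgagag

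Npas4, chr19:4989922-4990221, minus strand: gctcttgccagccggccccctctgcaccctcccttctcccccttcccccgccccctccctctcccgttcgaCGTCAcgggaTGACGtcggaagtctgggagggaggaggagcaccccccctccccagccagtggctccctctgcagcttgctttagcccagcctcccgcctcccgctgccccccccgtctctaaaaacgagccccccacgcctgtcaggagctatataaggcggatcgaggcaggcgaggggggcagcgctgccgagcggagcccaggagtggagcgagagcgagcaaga

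Homer1, chr13:93303507-93303806, plus strand: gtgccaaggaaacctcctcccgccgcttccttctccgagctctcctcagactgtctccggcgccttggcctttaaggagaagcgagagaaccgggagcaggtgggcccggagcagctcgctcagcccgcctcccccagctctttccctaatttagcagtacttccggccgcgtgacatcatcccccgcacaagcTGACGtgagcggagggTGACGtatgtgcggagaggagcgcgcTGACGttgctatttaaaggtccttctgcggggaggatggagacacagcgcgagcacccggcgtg

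With the start base counted as 1 and the base before it as -1, the Btg2 element begins at -166. The Npas4 cores begin at -179 and -169, and the Homer1 cores at -56, -40 and -14. Rgs2 had 2 cores (-185 and -67) and Ptgs2 had 1 (14). The Gadd45b window and the second Homer1 window had none. The TATA box TATAAA was in the Gadd45b window (-46) and in 13.6% of all windows, the heat shock element GAANNTTC in the second Homer1 window (-88) and in 7.86% of all, and the serum response element (CArG box) in 0 of the 7 and in 1.63% of all. A match describes letters in these windows and shows no binding.

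LP and NP libraries were then set side by side. In the pairs of single libraries a log2 ratio of at least 0.5, which is 1.41-fold, is used to count members. Arc (ENSMUSG00000022602; GRCm38 chromosome 15, 74669083 to 74672570), a cytoskeleton-associated protein that forms capsid-like particles and draws AMPA receptors out of the postsynaptic membrane, had 26.4 CPM in the LP and 27.1 CPM in the NP library of male hypothalamus. It had 276 CPM in LP and 147 CPM in NP female hippocampus, and 549.8 CPM in LP and 305 CPM in NP male hippocampus. In prefrontal cortex it had 1091 CPM in LP and 462 CPM in NP females, and 1336 CPM in LP and 1101 CPM in NP males. Arc was thus higher in LP in each of the 4 hippocampal and cortical pairs, by 1.21-fold in male cortex to 2.36-fold in female cortex, and nearly level in hypothalamus. The spread between sexes and regions is wider than the gap within a pair, so that LP and NP libraries overlap when pooled.

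Homer1 (ENSMUSG00000007617; chromosome 13, 93299635 to 93405129) encodes a postsynaptic scaffold of metabotropic glutamate receptors, and neuronal activity induces a short form that uncouples it. The table counts whole genes, so the short and long forms cannot be told apart. Homer1 had 26.8 CPM in LP and 17.7 CPM in NP male hypothalamus, 200.3 CPM in LP and 116 CPM in NP female hippocampus, and 185 CPM in LP and 125 CPM in NP male hippocampus. Female prefrontal cortex had 331 CPM in LP and 202 CPM in NP, and male prefrontal cortex 233 CPM in LP and 172 CPM in NP. LP was higher in all 5 pairs, and the log2 ratios lay close together, at 0.44 to 0.78.

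Nptx2 (ENSMUSG00000059991; chromosome 5, 144545902 to 144557478) encodes a secreted pentraxin that clusters AMPA receptors on interneurons. Its level was 41.2 CPM in LP and 37.2 CPM in NP male hypothalamus, 67.7 CPM in LP female hippocampus with no NP value, and 60.5 CPM in LP and 58.8 CPM in NP male hippocampus. The cortical levels were 202 CPM in LP and 113 CPM in NP females, and 131 CPM in LP and 94.9 CPM in NP males. The 4 ratios were all above 0, at 0.84 and 0.46 on the log2 scale in female and male cortex and at 0.15 or less elsewhere. The counting intervals of the male hippocampal and hypothalamic ratios included 0.

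Npas4 (ENSMUSG00000045903; chromosome 19, 4984355 to 4990316) is a transcription factor made almost only in response to calcium influx, which sets the number of inhibitory synapses. It had 13.5 CPM in LP and 14.1 CPM in NP male hypothalamus, 29.2 CPM in LP and 12.9 CPM in NP female hippocampus, and 49.6 CPM in LP and 30.4 CPM in NP male hippocampus. In prefrontal cortex it had 114 CPM in LP and 44.4 CPM in NP females, and 175 CPM in LP and 171 CPM in NP males. Both female pairs differed by over 2-fold (2.24 in hippocampus and 2.57 in cortex), while male cortex was at 1.03-fold.

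Gadd45b (ENSMUSG00000015312; chromosome 10, 80930073 to 80932204), a stress-inducible protein linked to DNA demethylation at activity-regulated genes, had 7.34 CPM in LP and 5.30 CPM in NP male hypothalamus. It had 19.7 CPM in LP and 10.3 CPM in NP female hippocampus, and 20.7 CPM in LP and 14.1 CPM in NP male hippocampus. Female prefrontal cortex had 44.1 CPM in LP and 17.7 CPM in NP, and male prefrontal cortex 35.9 CPM in LP and 27.9 CPM in NP. All 5 pairs were higher in LP, with the widest gap in female cortex (2.48-fold).

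Btg2 (ENSMUSG00000020423; chromosome 1, 134075170 to 134079120) is an antiproliferative protein that binds the CCR4-NOT deadenylase. It had 25.8 CPM in LP and 27.7 CPM in NP male hypothalamus, 24.9 CPM in LP and 13.1 CPM in NP female hippocampus, and 37.4 CPM in LP and 34.0 CPM in NP male hippocampus. The cortical levels were 37.7 CPM in LP and 19.6 CPM in NP females, against 83.5 CPM in LP and 118 CPM in NP males. The direction thus turned between the sexes in cortex, with log2 ratios of 0.94 in females and -0.49 in males.

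Ier2 (ENSMUSG00000053560; chromosome 8, 84661331 to 84662852), a nuclear immediate early protein encoded by 1 exon, had 5.72 CPM in LP and 5.02 CPM in NP male hypothalamus. Male hippocampus held 139 counts in LP and 113 counts in NP, a log2 ratio of CPM of 0.23. Female hippocampus held 6.27 CPM in LP, with no NP value. In prefrontal cortex it had 21.2 CPM in LP and 12.0 CPM in NP females, and 26.7 CPM in LP and 34.9 CPM in NP males. As for Btg2, female cortex was higher and male cortex lower in LP (0.82 and -0.39).

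Gem (ENSMUSG00000028214; chromosome 4, 11704457 to 11714752), a small GTPase of the RGK family that inhibits voltage-gated calcium channels, had 6.08 CPM in LP and 5.84 CPM in NP male hypothalamus, 4.48 CPM in LP and 3.19 CPM in NP female hippocampus, and 8.47 CPM in LP and 4.88 CPM in NP male hippocampus. Female prefrontal cortex had 7.85 CPM in LP and 3.64 CPM in NP, and male prefrontal cortex 17.9 CPM in LP and 6.25 CPM in NP. Every pair was higher in LP, and male cortex differed most (2.82-fold, 236 against 76 counts). The hypothalamic pair was nearly level (1.04-fold, 101 LP and 107 NP counts). Its counting interval and that of female hippocampus included no change.

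Rgs2 (ENSMUSG00000026360; chromosome 1, 143999338 to 144004161), which speeds GTP hydrolysis by Gq subunits, had 99.7 CPM in LP and 101 CPM in NP male hypothalamus, 37.5 CPM in LP and 38.9 CPM in NP female hippocampus, and 38.8 CPM in LP and 37.5 CPM in NP male hippocampus. The cortical levels were 63.6 CPM in LP and 46.2 CPM in NP females, and 64.6 CPM in LP and 50.1 CPM in NP males. Only in the cortical pairs did the counting intervals separate, and there both LP libraries were above both NP libraries.

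Ptgs2 (ENSMUSG00000032487; chromosome 1, 150100031 to 150108227), the inducible cyclooxygenase of prostaglandin synthesis, had 2.29 CPM in LP and 0.874 CPM in NP male hypothalamus, which are 38 and 16 counts. It had 34.5 CPM in LP and 28.8 CPM in NP female hippocampus, and 37.2 CPM in LP and 41.8 CPM in NP male hippocampus. In prefrontal cortex it had 26.9 CPM in LP and 6.79 CPM in NP females, and 16.4 CPM in LP and 10.8 CPM in NP males. The female cortical ratio of 3.89 was the largest of any member in any pair, while the hippocampal pairs went opposite ways. The counting intervals of LP and NP separated in neither hippocampal pair. The interval of the male log2 ratio, -0.35 to 0.016, includes no change.

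**Figure D1:**
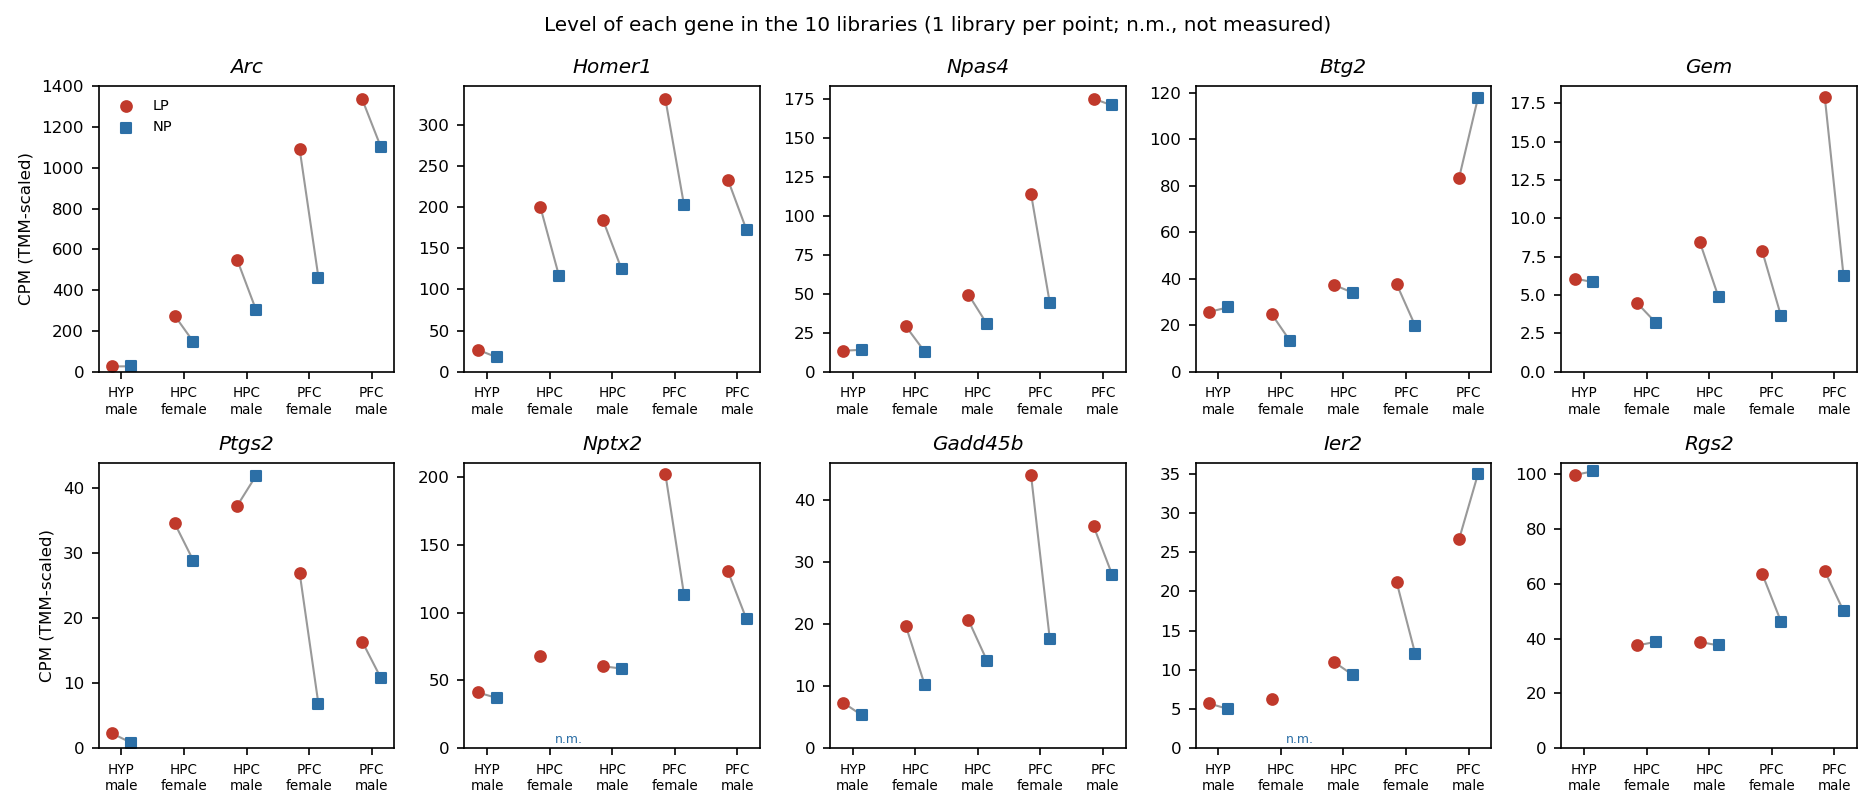
Level of each gene (CPM over TMM-scaled totals, linear axis from 0) in the LP (red circle) and NP (blue square) library of male hypothalamus (HYP), female and male hippocampus (HPC) and female and male prefrontal cortex (PFC), joined by a line. Each point is 1 library, and n.m. marks the library in which Nptx2 and Ier2 were not measured. Arc, Homer1 and Gadd45b stand higher in LP in all 4 hippocampal and cortical pairs, and Btg2 and Ier2 fall below NP in male cortex.

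Counted by pair, 2 of 10 members were at least 0.5 higher in LP on the log2 scale in male hypothalamus (7.52% of all genes), 5 of 8 in female hippocampus (5.13%), 5 of 10 in male hippocampus (5.79%), 9 of 10 in female prefrontal cortex (6.68%) and 2 of 10 in male prefrontal cortex (5.73%). No member was 0.5 lower in any pair, where 4.87%, 6.35%, 5.97%, 7.22% and 8.48% of all genes were, in the same order of pairs. The members' median log2 ratio was 0.10, 0.85, 0.39, 1.01 and 0.36 in that order. That no member was 0.5 lower rests on the exact cut. In male prefrontal cortex Btg2 was at -0.494 (counting interval -0.61 to -0.38) and Ier2 at -0.39 (-0.60 to -0.18). Over the measured pairs, 4 of 10 members were above NP in every one, against 7.92% of all genes. These were Homer1, Gem, Gadd45b and, in its 4 pairs, Nptx2. The counting intervals of Homer1 and Gadd45b lay above 0 in every pair. Those of Gem included 0 in male hypothalamus (-0.35 to 0.46) and female hippocampus (-0.15 to 1.14). Those of Nptx2 included 0 in male hippocampus (-0.11 to 0.19) and male hypothalamus (-0.0086 to 0.30). By the count past 0.5 the female cortical pair stood highest, and the male hypothalamic and male cortical pairs were lowest with 2 each.

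**Figure D2:**
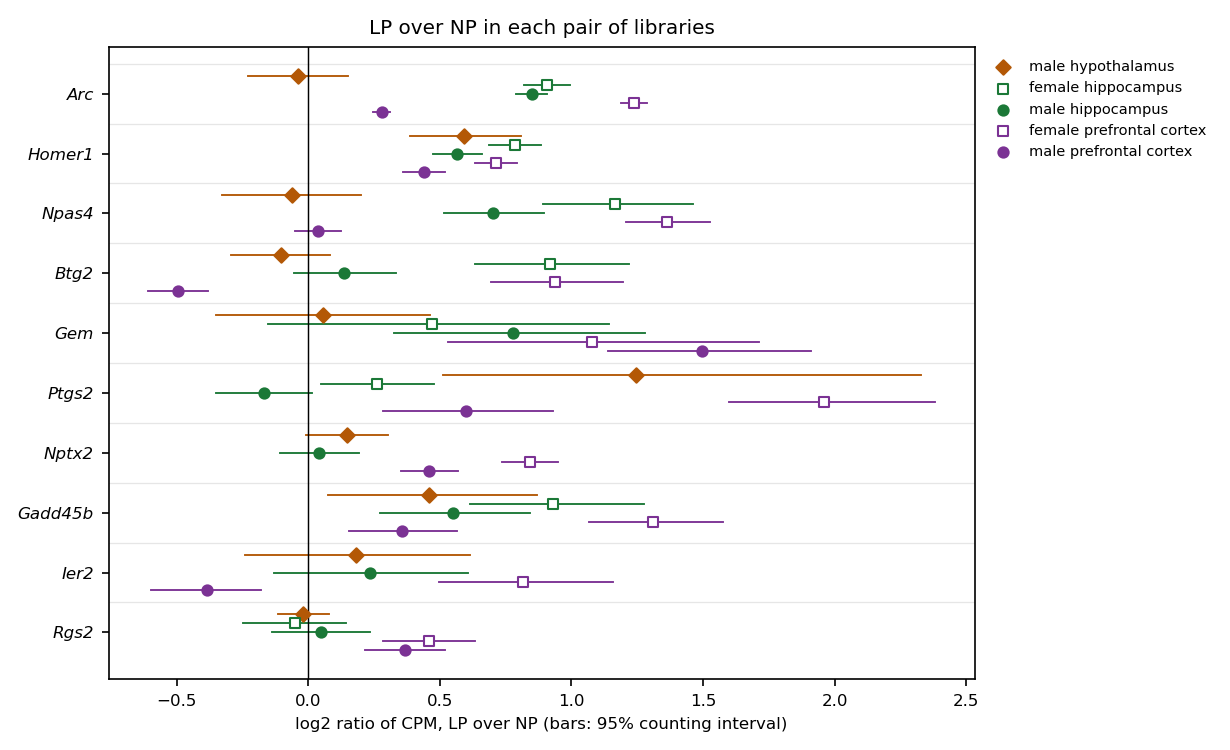
Log2 ratio of CPM, LP over NP, in each pair of libraries (diamonds, male hypothalamus; open squares, female pairs; filled circles, male pairs of hippocampus in green and prefrontal cortex in purple). Bars are 95% intervals from counting error only. Homer1 shows 5 ratios between 0.44 and 0.78, whereas those of Ptgs2 run between -0.17 and 1.96.

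To ask whether perinatal protein restriction left a lasting difference, LP was tested against NP over the 5 pairs with edgeR's quasi-likelihood F test, adjusted over all 17797 genes. Homer1 rose 1.54-fold (log2 0.62 ± 0.05 SE, adjusted p = 6.78e-05), Gadd45b 1.66-fold (0.73 ± 0.12, adjusted p = 0.0137) and Arc 1.63-fold (0.71 ± 0.13, adjusted p = 0.0196). These are 3 of 10 members called higher, against 0.871% of all genes called higher and 1.25% in either direction, and no member was lower, against 0.382% of all genes. Because the members were chosen with earlier results known, such shares, here and in the other comparisons, are not independent evidence of a direction. The other 7 did not pass: Gem at 0.83 ± 0.18 (adjusted p = 0.0509), Npas4 at 0.60 ± 0.17 (adjusted p = 0.122), Ptgs2 at 0.48 ± 0.21, Nptx2 at 0.40 ± 0.10 over 9 libraries, Rgs2 at 0.16 ± 0.07, Btg2 at 0.13 ± 0.17 and Ier2 at 0.11 ± 0.16 over 9 libraries. All 10 estimates were above 0, with a median of 0.54 against -0.00057 for all genes. The Homer1 and Gadd45b calls were lost only when the zeros of the incomplete library were kept as counts. Arc lost its call in that setting, with DESeq2, and without the female prefrontal cortex, the male hippocampus or the female hippocampus pair. On simulated data all tests tried but diet in prefrontal cortex made more false calls than the threshold of 0.05 allows. Calls of those tests are less firm than their adjusted p. Each test was tried on a single simulated set, which cannot show that the cortical calls are firm.

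Markers of other cells moved in the same comparison. Of 6 blood markers tested, 4 were lower in LP, all of them globin genes that form near-identical pairs. The summed level of the 4 blood markers measured in every library was 179 to 664 CPM in LP and 229 to 990 CPM in NP, and was lower in LP in all 5 pairs. Of 7 oligodendrocyte markers 1 was lower. The 4 of them measured in every library summed to 983 to 3367 CPM in LP and 1146 to 3698 CPM in NP, lower in LP in 4 of 5 pairs. Of 6 endothelial markers 1 was higher, as was 1 of 5 choroid plexus and ependymal markers. Of 8 hypothalamic markers 4 neuropeptide genes were lower. Summed hypothalamic markers were lower in LP in male hypothalamus (log2 ratio -0.73) but higher in 3 of 5 pairs. Outside hypothalamus those sums were at most 3.94 CPM. None of 5 pan-neuronal, 5 glutamatergic, 6 GABAergic, 6 astrocyte or 6 microglial markers was called by edgeR. Their part in the members' differences was not tested.

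Within prefrontal cortex (2 pairs, 11876 genes) 6 of 8 members tested were higher in LP, against 0.985% of all genes called higher and 1.79% in either direction. Gem rose 2.62-fold (1.39 ± 0.18, adjusted p = 0.000497), Ptgs2 2.36-fold (1.24 ± 0.22, adjusted p = 0.0069) and Gadd45b 1.73-fold (0.79 ± 0.15, adjusted p = 0.0139). Arc rose 1.68-fold (0.75 ± 0.13, adjusted p = 0.00539), Homer1 1.49-fold (0.58 ± 0.07, adjusted p = 0.000407) and Rgs2 1.33-fold (0.41 ± 0.08, adjusted p = 0.00956). Npas4 was at 0.59 ± 0.18 (adjusted p = 0.114) and Btg2 at -0.01 ± 0.20 (adjusted p = 0.995), and for both the female and male cortical ratios lay over 1 log2 unit apart. The same held for Ptgs2, which passed (1.96 in the female and 0.60 in the male pair). Without the female cortical pair only Gem passed, and without the male cortical pair 5 members did, Npas4 among them but neither Gem nor Rgs2. DESeq2 called Homer1 alone of the 8. In the same fit all 4 oligodendrocyte markers tested were lower in LP (summed log2 ratios of -0.22 in the female and -0.52 in the male pair), as were 2 of 3 blood markers, and their part was not tested. Nptx2 and Ier2 stayed out of this fit. In the fit without the female hippocampus pair (8 libraries, 1 residual degree of freedom), which called 777 genes against 212 with all pairs, Nptx2 was higher in LP (0.65 ± 0.07, edgeR adjusted p = 5.6e-16) and Ier2 did not pass (0.05 ± 0.12, adjusted p = 0.921).

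Within hippocampus (2 pairs) 2 of 8 members were higher in LP, against 0.219% of genes called higher and 0.328% in either direction. Arc rose 1.83-fold (0.87 ± 0.13, adjusted p = 0.00301) and Homer1 1.59-fold (0.67 ± 0.07, adjusted p = 0.000127). Npas4 at 0.88 ± 0.24, Gadd45b at 0.73 ± 0.19, Gem at 0.68 ± 0.21 and Btg2 at 0.44 ± 0.24 did not pass, although the first 3 of these estimates were as large as called ones. Ptgs2 was at 0.03 ± 0.16 and Rgs2 at 0.00 ± 0.08. With DESeq2 Homer1 alone passed, and with no filter on low counts neither did. Without the male hippocampus pair 5 members passed. In the fit with all pairs Ttr, the choroid plexus transthyretin gene, was higher in LP (2.91-fold, adjusted p = 0.000125), 1 of 4 choroid plexus and ependymal markers tested, and the globin genes Hba-a1 and Hba-a2 were lower, 2 of 3 blood markers. The summed choroid plexus and ependymal markers stood at 203 CPM in LP and 62.0 CPM in NP female hippocampus, and at 227 CPM in LP and 121 CPM in NP male hippocampus, and their part was not tested. In hypothalamus, with 1 library per diet and no test, Homer1 and Ptgs2 were over the 0.5 threshold (0.59 and 1.25). In that pair the summed pericyte, smooth muscle and meningeal markers stood at 348 CPM in LP and 186 CPM in NP. The hypothalamic markers stood at 515 CPM in LP and 855 CPM in NP, and the oligodendrocyte markers at 2030 CPM and 2730 CPM. Their part was not tested.

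The difference between the regions was tested directly as hippocampus minus prefrontal cortex. The edgeR test called 0 of 11876 genes (0%), with 637 at an unadjusted p under 0.05, and DESeq2 called 0. Leaving out 1 pair gave 0 to 58 genes. Among members Ptgs2 differed most, by -1.21 (95% interval -1.78 to -0.64, unadjusted p = 0.000354, adjusted p = 0.403), from log2 differences of 0.03 in hippocampus and 1.24 in prefrontal cortex. Gem was at -0.71 (-1.30 to -0.12) and Rgs2 at -0.42 (-0.66 to -0.18). For Arc (-0.27 to 0.51) and Homer1 (-0.12 to 0.31) the intervals of the difference include 0. With 1 pair left out, 1 member passed without the female cortical pair, 2 without the male hippocampus pair and 1 without the female hippocampus pair, in fits with 1 residual degree of freedom.

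The LP minus NP difference was also compared between the sexes, in the 8 cortical and hippocampal libraries (10973 genes, female minus male). Btg2 and Npas4 differed, 2 of 8 members tested, against 0.109% of all genes called higher, 0.0638% called lower and 0.173% in either direction. For Btg2 the female minus male difference was 1.18 on the log2 scale (± 0.18 SE, adjusted p = 0.0215), from pair ratios of 0.92 in female and 0.14 in male hippocampus and of 0.94 in female and -0.49 in male cortex. For Npas4 it was 1.02 (± 0.17, adjusted p = 0.0403), from 1.16 in female and 0.70 in male hippocampus and 1.36 in female and 0.04 in male cortex. In both regions the female ratio was thus the higher of the pair for these genes. The same held for Arc, Homer1, Gadd45b and Ptgs2. Gem went the other way in both regions, and Rgs2 did so in hippocampus. Gadd45b (0.73 ± 0.16, adjusted p = 0.179), Ptgs2 (0.75 ± 0.36), Arc (0.53 ± 0.15), Homer1 (0.25 ± 0.08), Gem (-0.40 ± 0.33) and Rgs2 (0.00 ± 0.16) did not pass. On simulated data this test, which has 2 residual degrees of freedom, made more false calls than its threshold of 0.05 allows, so both calls are less firm than their adjusted p. The other tests tried in that way did so too, except diet in prefrontal cortex, and the sex difference of diet did so by most. With a single simulated set per test, the exception is not evidence that its calls are firmer. DESeq2 called the same 2 members. With no filter on low counts and without the female cortical pair neither passed, and without the female hippocampus pair the only member to pass was Ptgs2.

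**Figure D3:**
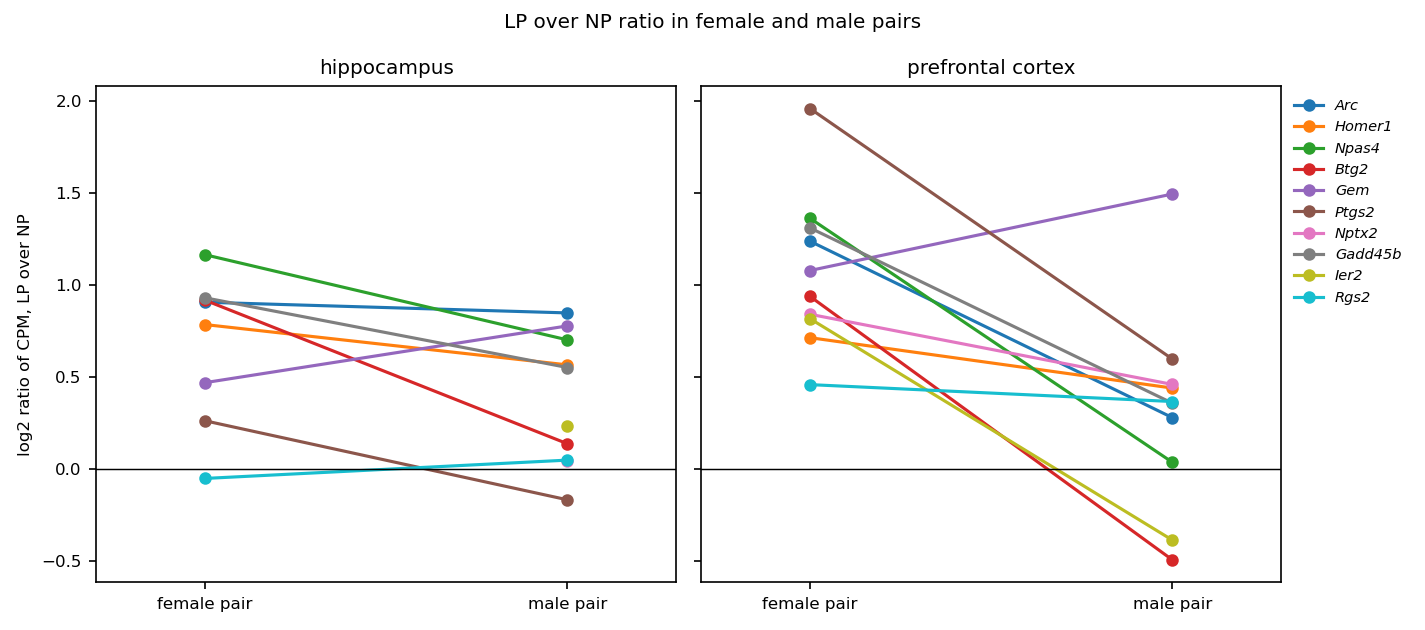
Log2 ratio of CPM, LP over NP, of each member in the female pair (left) and the male pair (right) of hippocampus and prefrontal cortex, 1 pair of libraries per point. The lines of Btg2, Npas4, Arc, Homer1, Gadd45b and Ptgs2 fall toward the male pair in both regions, while that of Gem goes up. That of Rgs2 falls in prefrontal cortex and goes up slightly in hippocampus. Nptx2 and Ier2 have no ratio in female hippocampus.

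The sexes were also set side by side within each diet. In NP prefrontal cortex the female over male log2 ratio was -2.57 for Btg2 (19.6 CPM in the female and 118 CPM in the male library), -1.94 for Npas4, -1.53 for Ier2 and -1.25 for Arc. In LP prefrontal cortex the ratios of the same genes were -1.14, -0.62, -0.33 and -0.29, nearer to 0 than in NP. The other members were mixed. Further from 0 in LP were Gem (-1.17 in LP and -0.76 in NP), Homer1 (0.51 and 0.23) and Nptx2 (0.63 and 0.25). Ptgs2 (0.71 in LP and -0.65 in NP) and Gadd45b (0.30 and -0.65) changed sign, and Rgs2 was near 0 in both (-0.023 and -0.11). In hippocampus Btg2 had -0.58 in LP and -1.36 in NP, Npas4 -0.76 in LP and -1.22 in NP, and Arc -0.99 in LP and -1.05 in NP.

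Females were then tested against males over both diets (18240 genes). Of 10 members 5 were lower in females, against 0.219% of all genes called lower, and 1 was higher, against 0.214% (0.433% in either direction). The log2 difference was -1.45 ± 0.20 for Btg2 (adjusted p = 0.0053), -1.13 ± 0.16 for Npas4 (adjusted p = 0.00526), -0.95 ± 0.13 for Gem (adjusted p = 0.00506), -0.89 ± 0.11 for Arc (adjusted p = 0.0012) and -0.89 ± 0.16 for Ier2 (adjusted p = 0.0127). Nptx2 was higher (0.36 ± 0.07, adjusted p = 0.0259). Homer1 (0.20 ± 0.07), Ptgs2 (-0.12 ± 0.15), Gadd45b (-0.15 ± 0.12) and Rgs2 (-0.04 ± 0.05) did not pass. Each sex has 1 library per region and diet. DESeq2 called Arc alone, and leaving out any 1 of the 4 cortical libraries left 2 of the 4 calls on Btg2, Npas4, Gem and Arc. Gem was lost each time, Btg2 without either LP cortical library and Arc without either NP cortical library, while Nptx2 and Ier2 were not tested in those fits. Of the 16 rapid transcription factor genes 6 were lower in females as well (Fos -1.15 ± 0.08, Nr4a1 -0.75 ± 0.08, Egr2, Junb, Jun and Nr4a2), and all 16 estimates were below 0.

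Levels were then compared between regions. Between hippocampus and prefrontal cortex all 10 members were called, 9 lower and 1 higher, where 26.1% of all 17550 genes were lower and 27.3% higher (53.4% in all). The log2 difference was -2.05 ± 0.18 for Npas4, -1.70 ± 0.14 for Arc, -1.55 ± 0.17 for Ier2 and -1.16 ± 0.22 for Btg2. Ptgs2 was the member that was higher, at 1.29 ± 0.23 (adjusted p = 0.000253). Its 4 hippocampal libraries held 28.8 to 41.8 CPM and its 4 cortical ones 6.79 to 26.9 CPM, without overlap. Between hypothalamus and prefrontal cortex again all 10 were called, 9 lower and 1 higher, where 30.5% of genes were lower and 33.2% higher (63.6%). The log2 difference was -5.60 ± 0.23 for Arc, -3.64 ± 0.26 for Npas4, -3.33 ± 0.48 for Ptgs2 and -3.31 ± 0.11 for Homer1. Rgs2 was higher, at 0.80 ± 0.10 (adjusted p = 5.71e-06), with 99.7 and 101 CPM in hypothalamus and 46.2 to 64.6 CPM in prefrontal cortex. Between hypothalamus and hippocampus 7 were lower, Rgs2 was higher (1.35 ± 0.10), and Btg2 and Gem did not pass, where 29.9% of genes were lower and 30.4% higher (60.3%).

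To set levels of different genes roughly side by side, they were divided by the length of all annotated exons of a gene. That length is 11976 bases for Homer1 and 1522 to 4580 bases for the other members, which lowers Homer1 in the order. The order in hypothalamus began with Rgs2 (mean 27.7 CPM per kb), Nptx2 (15.4), Btg2 (9.74) and Arc (8.74), and ended with Homer1 (1.86) and Ptgs2 (0.345). In hippocampus it began with Arc (105 ± 55.0 SD, n = 4), Nptx2 (24.6 ± 1.86, n = 3), Homer1 (13.1 ± 3.53) and Rgs2 (10.5 ± 0.211), and Gem was last. In prefrontal cortex it began with Arc (326 ± 123), Nptx2 (53.3 ± 18.6), Npas4 (30.5 ± 14.8) and Btg2 (23.6 ± 16.2), and ended with Gem (4.23 ± 2.96) and Ptgs2 (3.32 ± 1.90). Arc stood clear of the rest in cortex and hippocampus. In hippocampus Nptx2 also stood clear of Homer1, while Homer1 and Rgs2 lay within 1 SD of each other. In cortex Nptx2 and Npas4 had means further apart than either SD, with ranges that overlapped (37.4 to 79.8 and 10.7 to 42.4 CPM per kb). Neighbours in the order between Npas4 and Rgs2, and Gem and Ptgs2, lay within 1 SD of each other.

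**Figure D4:**
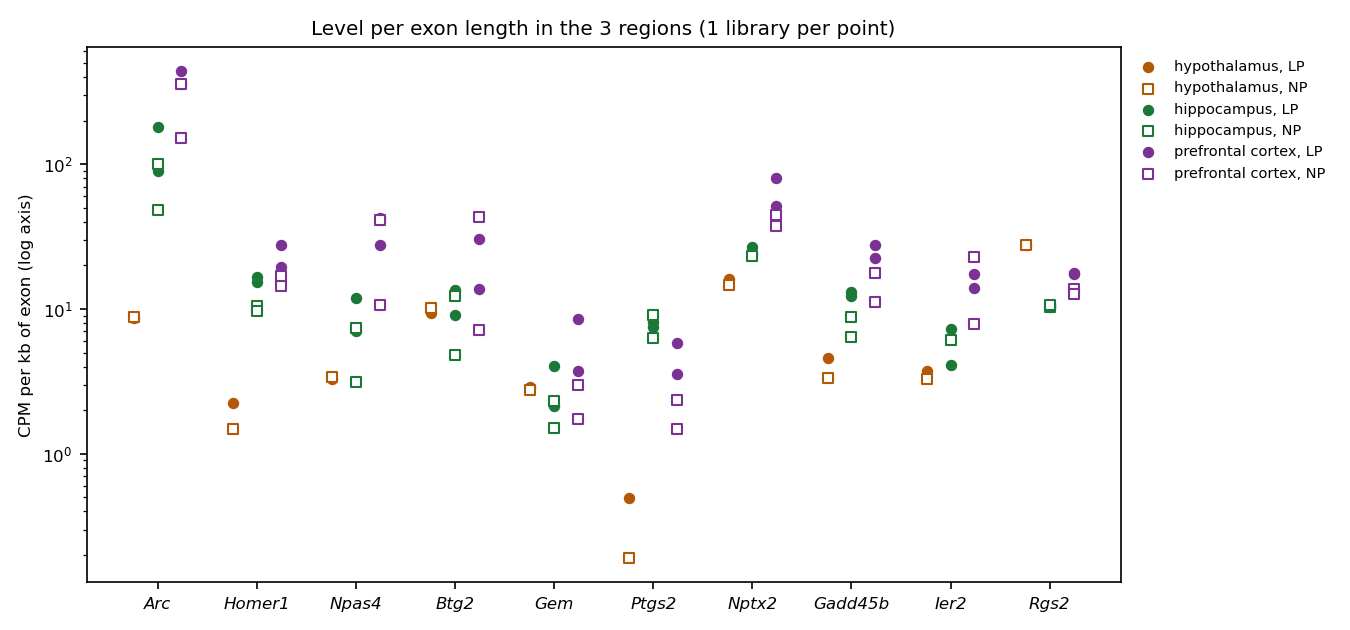
Level per kilobase of exon (CPM per kb, log axis) of each gene in hypothalamus, hippocampus and prefrontal cortex, 1 library per point, filled for LP and open for NP. Arc spans 8.62 to 437 CPM per kb and falls toward hypothalamus, Rgs2 is highest in hypothalamus, and Ptgs2 is highest in hippocampus.

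Over the 10 libraries the 8 members measured in all of them, without Nptx2 and Ier2, did not all follow each other. Arc, Homer1 and Gadd45b had Pearson correlations of log2 CPM of 0.91 to 0.95 with each other, and Npas4 had 0.91 with Gadd45b and 0.90 with Arc. Btg2 was nearer to Npas4 (0.83) and Gem (0.72) than to Homer1 (0.28), and Rgs2 was negative with Ptgs2 (-0.85), Homer1 (-0.68) and Arc (-0.53). The libraries share regions, so that these values mostly describe the order of the regions and are given without a test. Of 7060 other genes with a mean of at least 10 CPM, the 5 most like the mean profile of these 8 members were Sbno2 (0.963), Nr4a1 (0.953), Rbm24 (0.953), Smad7 (0.952) and Ppp1r3c (0.937). Nr4a1 is itself an immediate early nuclear receptor gene. Among the 8 Npas4 came nearest to the mean (0.966), and Rgs2 was farthest (-0.21).

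Close relatives of the members, which share their protein families, were examined for the same diet difference. Over the 5 pairs 2 of 23 were higher in LP and none lower (median 0.09): Tob1, of the Btg2 family (0.37 ± 0.05, adjusted p = 0.00602), and Ier5, of the Ier2 family (0.35 ± 0.05, adjusted p = 0.0073). Beside Homer1 at 0.62, its relatives Homer2 and Homer3 were at 0.08 ± 0.07 and -0.09 ± 0.10. Beside Ptgs2, the constitutive cyclooxygenase gene Ptgs1 was at 0.03 ± 0.09, and beside Nptx2 the pentraxin genes Nptx1 and Nptxr were at 0.07 ± 0.04 and 0.09 ± 0.05. Beside Gadd45b, Gadd45g was at 0.46 ± 0.12 (adjusted p = 0.0893) and Gadd45a at 0.03 ± 0.15. In prefrontal cortex alone 3 of 19 relatives were higher: Gadd45g (0.75 ± 0.13), Ier5 (0.41 ± 0.07) and Nptxr (0.21 ± 0.05). The levels of the relatives give their precision, with 69.8 to 86.3 CPM for Homer2 and 1149.9 to 1578 CPM for Nptxr in cortex, but 0.331 to 1.25 CPM for Rem1 and Rrad, relatives of Gem, in hippocampus.

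Other genes that activity induces were higher in LP too. Of 16 rapid transcription factors 12 were higher and none lower (median 0.67), with Nr4a2 at 0.99 ± 0.09, Fosb at 0.96 ± 0.13, Fosl2 at 0.88 ± 0.07 and Nr4a3 at 0.78 ± 0.11. Of 20 other activity-induced effector genes 7 were higher and none lower (median 0.36). They include Per1, a clock gene with CREB sites (0.40 ± 0.05), Sik1, a kinase that feeds back on CREB coactivators (0.53 ± 0.09), Kdm6b, a histone demethylase (0.46 ± 0.08), and Errfi1, an inhibitor of the EGF receptor (0.33 ± 0.05). Both lists were chosen with results of these libraries known and are not independent evidence of a direction.

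Genes whose products work with the members, or upstream of them, were counted in the same way. Of 18 synaptic partners of Arc, Homer1 and Nptx2, such as glutamate receptors and scaffolds, edgeR called none (median 0.01), and none of 10 partners and enzymes around Npas4 and Ptgs2 passed (median 0.05). Of 15 upstream kinases and factors Srf, the serum response factor, was higher (0.22 ± 0.05, adjusted p = 0.0421; median 0.03). In prefrontal cortex Mef2c, an activity-regulated transcription factor (-0.32 ± 0.06), and Arnt, a bHLH-PAS protein (-0.40 ± 0.09), were lower. Of 12 heat shock genes 8 were higher (median 0.41; Dnajb1 at 0.98 ± 0.07, Hspb1 at 1.36 ± 0.15, Hspa5 at 0.45 ± 0.05 and Hsph1 at 0.36 ± 0.05). None of 13 clock genes outside the activity lists passed (median 0.04), and of 13 glucocorticoid-induced genes Errfi1 alone did (median 0.24).

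**Figure D5:**
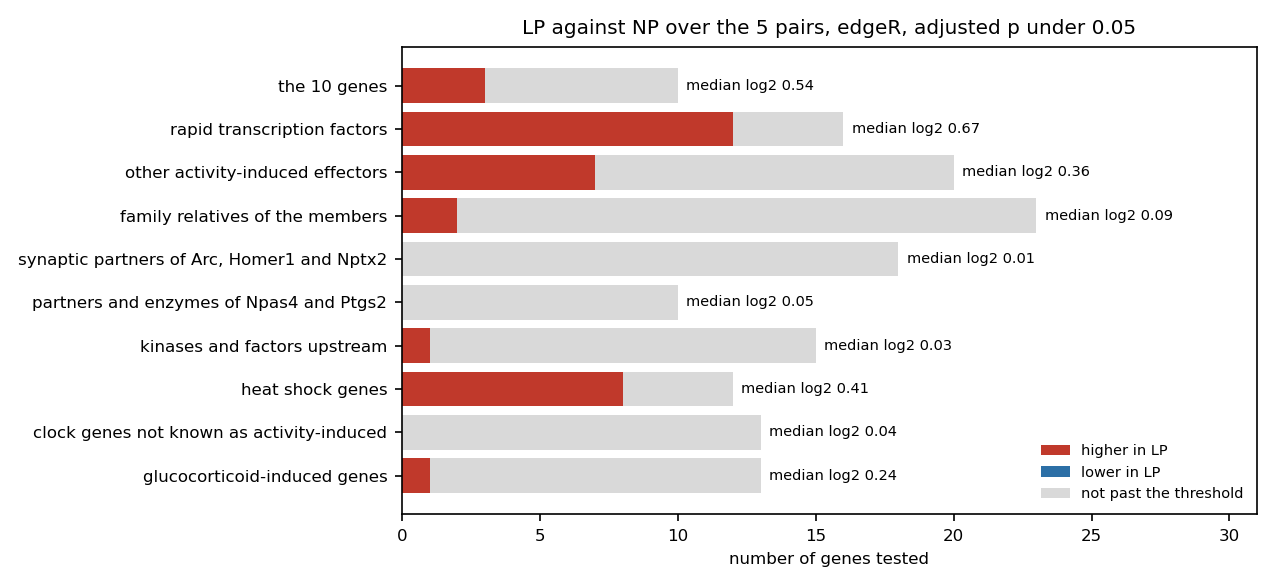
Number of genes of each list tested for LP against NP over the 5 pairs, with those higher in LP in red and those not past an adjusted p of 0.05 in grey, and the list's median log2 fold change beside the bar. No gene of these lists was lower. The rapid transcription factors (12 of 16) and heat shock genes (8 of 12) have the largest shares of calls, and the synaptic partners, clock genes and partners of Npas4 and Ptgs2 have 0.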

How the data were processed

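RNA was sequenced as TruSeq libraries from 1 µg of total RNA. Per the submitters' processing notes, CASAVA, FastQC 0.10.1 and STAR 2.5.0a were used with mm10. The deposited table holds whole-number counts for each Ensembl gene ID in 10 libraries, not normalized by the authors. How reads were counted, with which strand setting and annotation, is not given in the sources used here. Of 47729 gene IDs 47310 matched GENCODE M21. The 19598 genes not placed wholly before Park7 on chromosome 4 were treated as not measured in the female NP hippocampus library.

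In R 4.3.3, genes were kept by filterByExpr (minimum count 10) and tested with edgeR 4.0.16 (TMM, quasi-likelihood F test, Benjamini-Hochberg at 0.05). Residual degrees of freedom were 4 for diet over the 5 LP and NP pairs, 2 for diet per region and between sexes, 5 for regions with sex and diet as terms, and 3 for sex within each region and diet. Where a library lacked a gene, the fit left that library out, 1 degree of freedom fewer, and p-values were adjusted together with the rest. Such genes stayed out of the tests per region and between sexes unless that library's pair was left out. Each pair holds 1 LP and 1 NP library and serves as the block. CPM are over TMM-scaled totals of genes measured in all libraries, times 1 constant that brings them near ordinary CPM. Log2 ratios of pairs use a prior count of 2 and 95% counting intervals. DESeq2 1.42.0, other scaling, other filters and leaving out pairs or libraries were alternatives, and 6 of the tests were tried on simulated data. There false calls exceeded the share of 0.05 in all but diet in prefrontal cortex, and by most in the sex difference of diet. Each test had a single simulated set, so the exception is not evidence of firmer calls.

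The members and lists were chosen with earlier results of these data known. All members are named. Of each list, up to 4 genes past the threshold are named by smallest p, with the relatives of members and the 5 genes of most similar profile. Relatives and list genes called within 1 region or sex were named after their values were seen. The same profile measure on values centred by pair rests on 5 pairs and is not given.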

Additional observations from a re-analysis of the deposited data

Results flagged for a closer look

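The LP minus NP difference of Npas4 and Btg2 differed between the sexes by a test of the difference itself (edgeR's quasi-likelihood F test, 8 libraries of hippocampus and prefrontal cortex). For Npas4 the female minus male difference was 1.02 on the log2 scale (adjusted p = 0.0403), and the female ratio was the higher in 2 of 2 regions. For Btg2 it was 1.18 (adjusted p = 0.0215), again with the female ratio the higher in 2 of 2 regions. Arc, Homer1, Gadd45b and Ptgs2 also had the higher ratio in females in both regions, but did not pass. Gem and Rgs2 did not show this. Each ratio rests on 1 LP and 1 NP library, and in NP prefrontal cortex the female library held 44.4 CPM and the male library 171 CPM of Npas4, and 19.6 CPM and 118 CPM of Btg2. On simulated data this test made more false calls than its threshold of 0.05 allows. The part of single libraries in these differences was not tested beyond leaving out each pair.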

How the results depend on the processing

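Of the members called, keeping the zeros of the incomplete library as counts left 0 of 3 for diet over all regions, 0 of 6 in prefrontal cortex, 0 of 2 in hippocampus, 0 of 2 for the sex difference of diet, 6 of 10 for hippocampus against prefrontal cortex and 0 of 6 for female against male. DESeq2 gave 1 in prefrontal cortex, 1 in hippocampus and 1 for female against male, and no low-count filter gave 2 in prefrontal cortex, 0 in hippocampus and 0 for the sex difference of diet. Leaving out a pair or library gave 2 to 5 members for diet over all regions, 1 to 7 in prefrontal cortex, 2 to 5 in hippocampus, 0 to 2 for the regional difference of diet, 0 to 4 for the sex difference of diet and 2 to 7 for female against male. All genes called then ranged over 85 to 245, 32 to 777, 28 to 135, 0 to 58, 5 to 213 and 8 to 266 in the same order. Other settings moved these counts by over 1.5 times as well. Diet over all regions called 223 genes, 111 with DESeq2 and 1 with the zeros kept. Prefrontal cortex called 212, 14 with DESeq2, 21 with no filter and 0 with the zeros kept. Hippocampus called 39, 11 with DESeq2, 5 with no filter and 0 with the zeros kept, and the sex difference of diet 19, 12 with DESeq2 and 0 with no filter or with the zeros kept.

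Signs turned for estimates near 0. Btg2 in prefrontal cortex was at 0.22 with DESeq2, 0.050 with edgeR's earlier method and 0.23 with the zeros kept, and Rgs2 was at 0.0011 in hippocampus and 0.0048 for the sex difference of diet with the zeros kept, and at 0.0014 for the sex difference with DESeq2. Nptx2 for female against male was at -0.66 with the zeros kept. Leaving out a pair or library gave -0.0085 to 0.38 for Btg2 and -0.093 to 0.46 for Ier2 in diet over all regions, -0.49 to 0.94 for Btg2 in prefrontal cortex, and -0.052 to 0.036 for Rgs2 and -0.18 to 0.26 for Ptgs2 in hippocampus. For the regional difference of diet it gave -0.37 to 0.59 for Arc, -0.045 to 0.23 for Homer1, -0.50 to 0.83 for Npas4, -0.52 to 0.91 for Btg2 and -0.60 to 0.36 for Gadd45b, and for the sex difference of diet -0.27 to 0.24 for Rgs2 and -0.74 to 0.042 for Gem. It gave -0.66 to 0.36 for Gem in hypothalamus against hippocampus, and -0.39 to 0.019 for Gadd45b and -0.37 to 0.23 for Ptgs2 in female against male. The cause of these shifts was not tested. Fits without a cortical or hippocampal pair have 1 residual degree of freedom in the tests per region and between sexes. No paired analysis was possible because each group holds 1 library, beyond the pairing of LP with NP within region and sex. Dropping that pairing for additive terms gave 4 members called over all regions, against 3. Depth limits Ptgs2 in hypothalamus (38 LP and 16 NP counts) and Gem (37 to 236 counts per library).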
